A study of Mus musculus with 27 samples.

Results

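The 10 genes described here make fatty acids and build them into glycerolipids, and they are Srebf1, Acly, Me1, Acaca, Fasn, Thrsp, Elovl6, Scd1, Scd2 and Agpat2. They are 10 of 54532 gene rows in the count table, and each passed the filter on low counts in every comparison, among 15233 genes kept over all libraries. The set was chosen from an earlier result of these data, in which Fasn and Agpat2 were lower in normal-looking thyroid of exposed mice than in thyroid of non-exposed mice, together with textbook knowledge of the pathway. Levels set against the non-exposed mice are therefore given as descriptions, with no p-value, and no count of calls among the 10 is read there.

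RNA was measured in mouse thyroid tissue cut from sections by laser capture, in 27 libraries that read the 3′ end of polyadenylated transcripts. Proliferative lesions of mice exposed to radiation are called PL, normal-looking thyroid of the same mice is called NT, and normal thyroid of mice with no exposure is called NCT. Each group held 9 libraries from 9 mice, 6 female and 3 male, and PL and NT libraries carry the same mouse numbers. The sources used here do not give strain, age, dose or time after exposure, no genetic change or other agent is labelled, and every exposed mouse carried a lesion, so exposure and bearing a lesion cannot be told apart.

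In fatty acid synthesis, citrate is split into acetyl-CoA, acetyl-CoA is carboxylated to malonyl-CoA, and fatty acid synthase joins these units into palmitate at the cost of NADPH. Elongases and desaturases then lengthen and unsaturate the chain, and acyltransferases attach it to a glycerol backbone. The pathway is most active in liver and fat, where the transcription factor SREBP-1 switches on most of its enzymes, and fat is a common neighbour of the thyroid in the neck.

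Promoters are shown for 3 of the genes because Fasn and Thrsp were far below the NCT level in exposed mice while Elovl6 was not. RefSeq on GRCm38.p6 held promoters for 8 of the 10 genes, 11 in all, each running from 250 bases before the start to 50 bases after it. They were searched on both strands for the SREBP site TCACNCCAC, the E-box CACGTG and the CCAAT box, which reads ATTGG on the other strand. Capitals mark CCAAT boxes, and each sequence runs 5′ to 3′ along its gene's strand.
Fasn promoter, chr11:120824498-120824797, minus strand: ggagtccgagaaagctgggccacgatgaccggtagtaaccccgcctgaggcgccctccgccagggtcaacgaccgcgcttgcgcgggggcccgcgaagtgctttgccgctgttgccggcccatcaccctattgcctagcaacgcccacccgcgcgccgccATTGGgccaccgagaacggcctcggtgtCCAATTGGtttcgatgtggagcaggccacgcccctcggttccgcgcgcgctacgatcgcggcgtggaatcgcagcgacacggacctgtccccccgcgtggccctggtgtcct
Thrsp promoter, chr7:97417501-97417800, minus strand: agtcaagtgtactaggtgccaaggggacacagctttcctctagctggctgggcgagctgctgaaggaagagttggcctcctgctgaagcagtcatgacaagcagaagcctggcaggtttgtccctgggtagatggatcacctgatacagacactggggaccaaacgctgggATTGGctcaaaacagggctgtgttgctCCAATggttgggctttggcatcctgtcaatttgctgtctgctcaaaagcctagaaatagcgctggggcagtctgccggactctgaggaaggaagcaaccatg
Elovl6 promoter, chr3:129532136-129532435, plus strand: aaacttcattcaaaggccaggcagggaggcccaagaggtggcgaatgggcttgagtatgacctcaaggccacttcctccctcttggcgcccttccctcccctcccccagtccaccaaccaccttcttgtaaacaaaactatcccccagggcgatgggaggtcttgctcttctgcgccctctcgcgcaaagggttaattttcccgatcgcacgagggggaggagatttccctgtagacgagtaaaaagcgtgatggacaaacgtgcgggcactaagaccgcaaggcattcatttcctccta

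The Fasn window held CCAAT boxes at -90, -62 and -59 from the start, the last pair overlapping, and the Thrsp window held them at -79 and -52. The Elovl6 window held no match to any of the 3 motifs. Of the 11 windows, 6 (54.5%) held a CCAAT box, against 37.4% of 32851 promoters. None of the 11 held an E-box or the SREBP site, which 7.15% and 1.24% of all promoters held. A missing match says only that these letters are not in the window.

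Libraries held 4693945 to 12055026 counts in PL, 5047817 to 14148601 in NT and 2923851 to 10202813 in NCT, and the 10 genes had 43 to 12328 counts in a library. Levels are given in CPM, read counts divided by the library size after scaling for library composition, so they compare libraries within a gene and not genes with each other. Thyroid follicular markers summed to 11973 to 35835 CPM in PL, 13152 to 41255 CPM in NT and 27459 to 62068 CPM in NCT, and none of the 9 was at 0 in every library of a group. Over 2000 CPM of Pth, which encodes parathyroid hormone, were found in PL 2, NT 7, NT 9, NCT 5 and NCT 8, and NCT 9 held as much of Lipf, a lipase gene of gastric and other glandular epithelium. A list of 6 gastric or salivary type genes had its highest sums in PL 8 (7616 CPM), NT 7 (5936 CPM) and NCT 9 (36283 CPM), against medians of 524 CPM in PL, 1152 CPM in NT and 1134 CPM in NCT. NT 9 (5920 CPM) and NT 8 (5499 CPM) were close to NT 7. Within NT, Bpifa1 reached 5896 CPM, Dcpp1 210 CPM and Lipf 29.0 CPM, so the high NT sums were mainly Bpifa1. Bpifa1 averaged 92.8 CPM in PL, 2356 CPM in NT and 1654 CPM in NCT. The high sums of NT 7, NT 8 and NT 9 therefore stand for this 1 gene and not for gastric or salivary transcripts in general. Skeletal muscle genes (5 in the list) summed to 467 CPM in PL 6, 1457 CPM in NT 4 and 1283 CPM in NT 8, against medians of 6.41 CPM in PL, 6.72 CPM in NT and 134 CPM in NCT. The part of gastric, salivary and muscle transcripts in the results was not tested beyond leaving out single libraries. Adipocyte markers (14 genes, none of them among the 10) summed to 211, 569 and 1923 CPM in PL (lowest, median, highest), 502, 785 and 1544 CPM in NT and 867, 1500 and 6211 CPM in NCT. All 14 had counts in every NCT library, 13 in every NT library and 12 in every PL library, and none was at 0 throughout a group. The mean log2 CPM of these 14 genes is called the fat score below. A list of 7 brown fat genes, none of them in the score, summed to 73.2, 134 and 411 CPM in PL (lowest, median, highest). It was at 98.1, 155 and 389 CPM in NT and 247, 347 and 1868 CPM in NCT. The highest sums were those of NCT 9 (1868 CPM) and NCT 6 (1323 CPM). Ucp1 of this list averaged 32.3 CPM in PL, 29.2 CPM in NT and 212 CPM in NCT.

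Srebf1, which encodes the transcription factor SREBP-1, was low and variable in every group. It lay at 10.5, 27.6 and 60.9 CPM in PL (lowest, median, highest), at 6.41, 24.1 and 35.8 CPM in NT and at 15.2, 26.7 and 41.5 CPM in NCT. The 3 groups overlapped over most of their range. Acly, the citrate lyase that supplies acetyl-CoA, was at 50.8, 79.7 and 99.3 CPM in PL, 66.4, 80.1 and 94.3 CPM in NT and 79.1, 114 and 185 CPM in NCT. Every PL and NT library lay below the NCT median, and 4 of each lay below the lowest NCT library. Me1, the cytosolic malic enzyme that yields NADPH, was at 163, 194 and 291 CPM in PL, 89.8, 161 and 239 CPM in NT and 147, 223 and 294 CPM in NCT, with wide overlap.

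Acaca, the carboxylase that makes malonyl-CoA, was at 45.7, 51.4 and 69.2 CPM in PL, 40.3, 51.6 and 62.2 CPM in NT and 33.9, 72.0 and 121 CPM in NCT. NCT libraries spread over the whole range of the other groups and beyond it. Fasn, the fatty acid synthase (chromosome 11, 120805846 to 120824547, minus strand), was at 121, 133 and 244 CPM in PL, 97.6, 129 and 167 CPM in NT and 168, 253 and 567 CPM in NCT. All 9 NT libraries lay below all 9 NCT libraries, by a narrow margin at the edge, and 8 of 9 PL libraries did so too. The exception was PL 5 at 244 CPM. Thrsp (Spot 14), a nuclear protein that thyroid hormone induces in rodent liver and that promotes lipid synthesis there, was at 7.62, 36.5 and 126 CPM in PL, 37.4, 80.2 and 99.2 CPM in NT and 106, 183 and 546 CPM in NCT. No NT library reached the NCT range, and PL 5 was again the single lesion that did.

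Elovl6, which lengthens palmitate to stearate, was at 210, 369 and 863 CPM in PL, 131, 220 and 549 CPM in NT and 127, 247 and 398 CPM in NCT. NT and NCT overlapped almost fully, and 4 lesions lay above the highest NCT library. Scd1, the stearoyl-CoA desaturase of fat and liver (chromosome 19, 44394455 to 44407879, minus strand), was at 110, 308 and 898 CPM in PL, 289, 518 and 766 CPM in NT and 920, 1072 and 5102 CPM in NCT. Neither PL nor NT overlapped NCT. Its neighbour Scd2, the desaturase best known from mouse brain, was at 194, 221 and 331 CPM in PL, 147, 168 and 297 CPM in NT and 141, 206 and 242 CPM in NCT, with all groups overlapping. The sources used here do not give how reads shared between the related Scd genes were counted, so the split between them is uncertain. Agpat2, an acyltransferase of phosphatidic acid synthesis whose loss causes lipodystrophy in humans, was at 10.9, 19.1 and 43.7 CPM in PL, 16.4, 19.8 and 39.3 CPM in NT and 36.8, 49.9 and 140 CPM in NCT. NCT overlapped each of the other groups by 1 library of that group, PL 5 and NT 5.

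**Figure D1:**
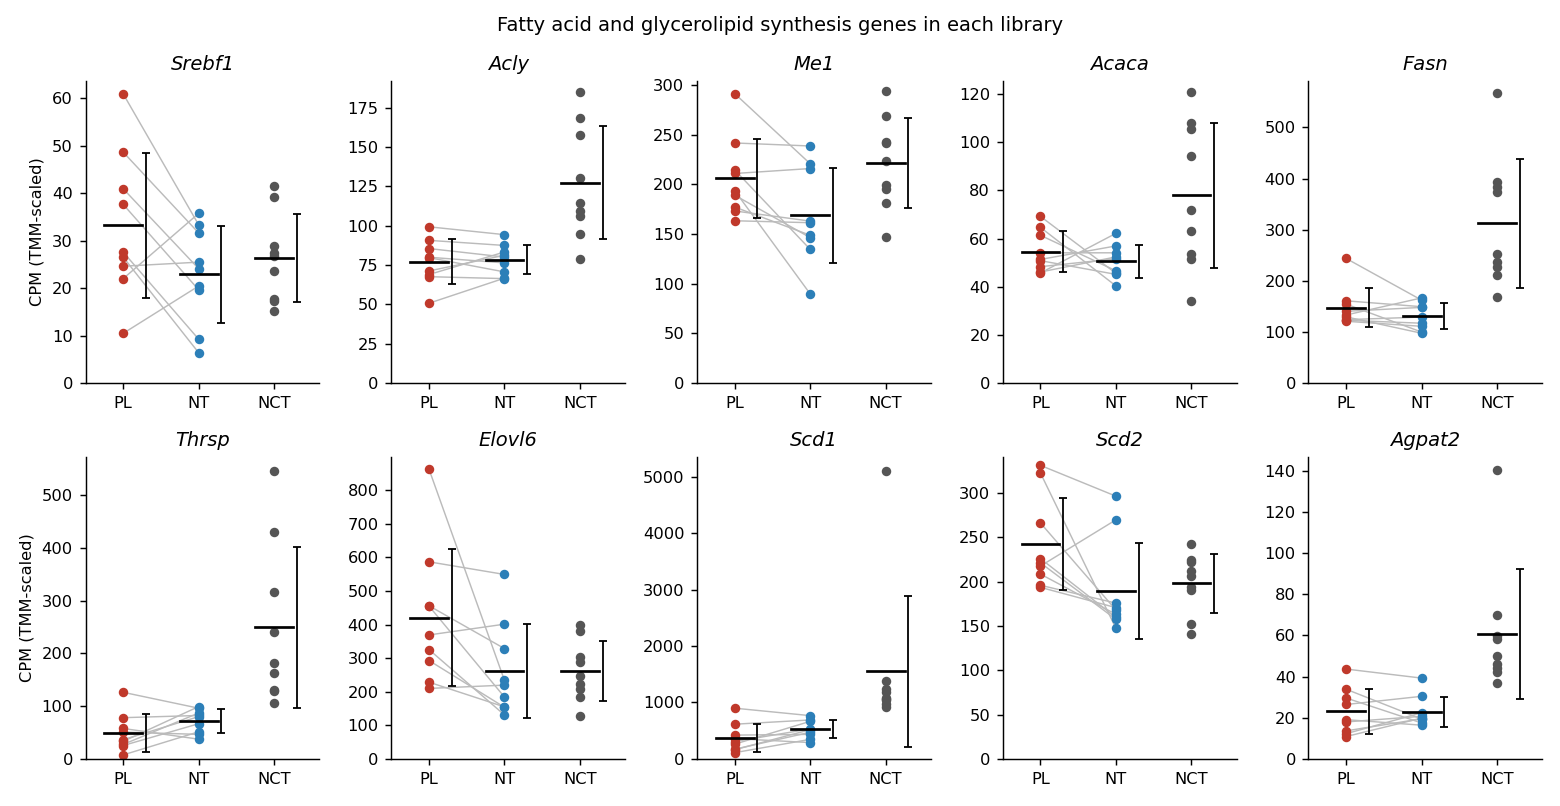
Level of each of the 10 genes (vertical axis, TMM-scaled CPM, starting at 0) in the 9 PL, 9 NT and 9 NCT libraries, with grey lines joining PL and NT of 1 mouse, a horizontal bar at the mean and an error bar of 1 SD. Fasn, Thrsp, Scd1 and Agpat2 sit low in PL and NT and high in NCT, with NCT 9 at 5102 CPM of Scd1, while Elovl6, Scd2, Srebf1 and Me1 overlap between the groups.

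NT was set against NCT to ask how normal-looking thyroid of exposed mice differs from thyroid without exposure. The 10 genes ran from far below the NCT level to level with it. Thrsp averaged 71.9 ± 22.4 CPM in NT and 249 ± 152 CPM in NCT (SD, n = 9 each), a log2 fold change of -1.79 (SE 0.32). Scd1 averaged 524 ± 160 CPM in NT and 1553 ± 1339 CPM in NCT (-1.57, SE 0.34), and Agpat2 averaged 22.8 ± 7.38 CPM in NT and 60.9 ± 31.5 CPM in NCT (-1.40, SE 0.23). Fasn averaged 131 ± 26.4 CPM in NT and 313 ± 126 CPM in NCT (-1.25, SE 0.20).

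Acly, at 78.5 ± 9.45 CPM in NT and 127 ± 35.9 CPM in NCT, and Acaca, at 50.6 ± 6.77 CPM in NT and 78.1 ± 30.1 CPM in NCT, had log2 fold changes of -0.69 (SE 0.14) and -0.62 (SE 0.19). Me1 averaged 169 ± 47.7 CPM in NT and 221 ± 45.5 CPM in NCT (-0.39, SE 0.16). Srebf1 (-0.19, SE 0.28), Scd2 (-0.06, SE 0.14) and Elovl6 (-0.00, SE 0.28) differed by less than their SE. The median over the 10 genes was -0.66, against 0.014 over all 14447 genes tested. All NT libraries lay below all NCT libraries for Fasn, Thrsp and Scd1, 3 of the 10 genes, while 0.0415% of all genes did so. The set was chosen on this contrast, so neither gap to all genes is read as a result about the 10. Past an adjusted p of 0.05 (edgeR, Benjamini-Hochberg) were 4 genes, 0.0277% of all. Calls among the 10 are not read here, for the same reason.

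Fat transcripts moved with this contrast. The fat score was higher in NCT, with the summed markers given above, and with the score as a covariate the log2 fold changes were -0.97 for Thrsp (SE 0.35), -0.76 for Agpat2 (SE 0.22), -0.69 for Fasn (SE 0.20), -0.59 for Scd1 (SE 0.26) and -0.50 for Acly (SE 0.19). These 5, and Acaca at -0.28 (SE 0.23), were smaller than without it. Me1 was at -0.46, Scd2 at -0.17, Elovl6 at -0.13 and Srebf1, which changed sign, at 0.17. Without NCT 9, the library with the highest fat markers, Thrsp was at -1.56, Agpat2 at -1.16, Fasn at -1.09 and Scd1 at -1.08. Among the 3 NT and 3 NCT mice whose labelled numbers open with the same 5 digits, Thrsp was at -1.64, Agpat2 at -1.05, Fasn at -0.99 and Scd1 at -0.91. In bulk tissue, fewer cells of a type and less RNA per cell cannot be told apart. The part of the fat transcripts in these differences was not tested beyond the covariate.

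PL was compared with NT of its own mouse, which asks how a lesion differs from nearby tissue. No gene of the 10 passed an adjusted p of 0.05 in edgeR's quasi-likelihood test with the mouse as a block, against 3.08% of 14461 genes tested. At an unadjusted p under 0.05 there were 5 of the 10 genes, against 17.6% of all genes, and they pointed both ways. The Wald test of DESeq2 called 3, namely Elovl6, Scd1 and Thrsp, against 8.89% of all genes. The median over the 10 was 0.13, against 0.0025 over all genes. The choice of the set used these NT libraries too, so the p-values, shares and median here are not free of that choice. A gene chosen for a low NT level can lean towards PL above NT.

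Elovl6 averaged 421 ± 205 CPM in PL and 262 ± 139 CPM in NT (SD, n = 9 each). Its log2 fold change was 0.70 (SE 0.20, edgeR adjusted p = 0.0817, DESeq2 adjusted p = 0.00797), with PL above NT in 7 of 9 mice. The largest pair difference was that of mouse 3, whose lesion had 863 CPM and whose normal tissue had 234 CPM. Scd2 averaged 243 ± 52.3 CPM in PL and 190 ± 54.0 CPM in NT (0.36, SE 0.13, adjusted p = 0.131), with PL higher in 8 of 9 mice. Me1 averaged 206 ± 40.0 CPM in PL and 169 ± 47.7 CPM in NT (0.31, SE 0.12, adjusted p = 0.178), also with PL higher in 8 of 9. Srebf1 averaged 33.3 ± 15.3 CPM in PL and 22.9 ± 10.2 CPM in NT (0.55, SE 0.28, adjusted p = 0.341).

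Thrsp and Scd1 pointed the other way. Thrsp averaged 49.2 ± 35.4 CPM in PL and 71.9 ± 22.4 CPM in NT (-0.81, SE 0.35, adjusted p = 0.265, DESeq2 adjusted p = 0.0408), with PL lower in 6 of 9 mice. Scd1 averaged 368 ± 252 CPM in PL and 524 ± 160 CPM in NT (-0.74, SE 0.25, adjusted p = 0.136, DESeq2 adjusted p = 0.0110), with PL lower in 7 of 9. For both genes the pairs disagreed among themselves. Mouse 9 had 7.62 CPM of Thrsp in its lesion and 51.4 CPM in its normal tissue, while mouse 5 had 126 CPM in its lesion and 96.1 CPM in its normal tissue.

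Fasn, Acly, Acaca and Agpat2 had mean levels close together in lesion and normal tissue. Single pairs differed more, with PL over NT at 0.80 to 1.55 for Fasn and 0.76 to 1.13 for Acly. For Acaca it was 0.74 to 1.60 and for Agpat2 0.55 to 1.75. Fasn averaged 148 ± 38.6 CPM in PL and 131 ± 26.4 CPM in NT (0.16, SE 0.11, adjusted p = 0.509), and Acly 77.1 ± 14.3 CPM in PL and 78.5 ± 9.45 CPM in NT (-0.05, SE 0.09, adjusted p = 0.854). Acaca averaged 54.6 ± 8.47 CPM in PL and 50.6 ± 6.77 CPM in NT (0.10, SE 0.13, adjusted p = 0.741). Agpat2 averaged 23.1 ± 11.1 CPM in PL and 22.8 ± 7.38 CPM in NT (-0.08, SE 0.19, adjusted p = 0.870). A p that misses the threshold does not show that these levels are equal.

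With the fat score as a covariate Elovl6 was at 0.45, Scd2 at 0.21, Me1 at 0.15, Thrsp at -0.37 and Scd1 at -0.42, and Agpat2 turned to 0.16. Srebf1 was larger with it, at 0.71, and Fasn was at 0.11, Acly at -0.09 and Acaca at 0.15. None of the 10 passed the threshold. Without mice 2, 7 and 9, which had a library over 2000 CPM of Pth, Thrsp was at -0.24 and Scd1 at -0.45. In that fit Elovl6 was at 0.57, Scd2 at 0.21 and Me1 at 0.22, each smaller than with all mice. Agpat2 turned to 0.14 and Acaca was larger, at 0.24, while Srebf1 (0.56), Fasn (0.16) and Acly (-0.07) moved little. NT 9, which had 25924 CPM of Pth, held the lowest NT level of Elovl6 (131 CPM), Scd2 (147 CPM) and Me1 (89.8 CPM). The part of parathyroid transcripts was not tested beyond leaving out those mice.

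**Figure D2:**
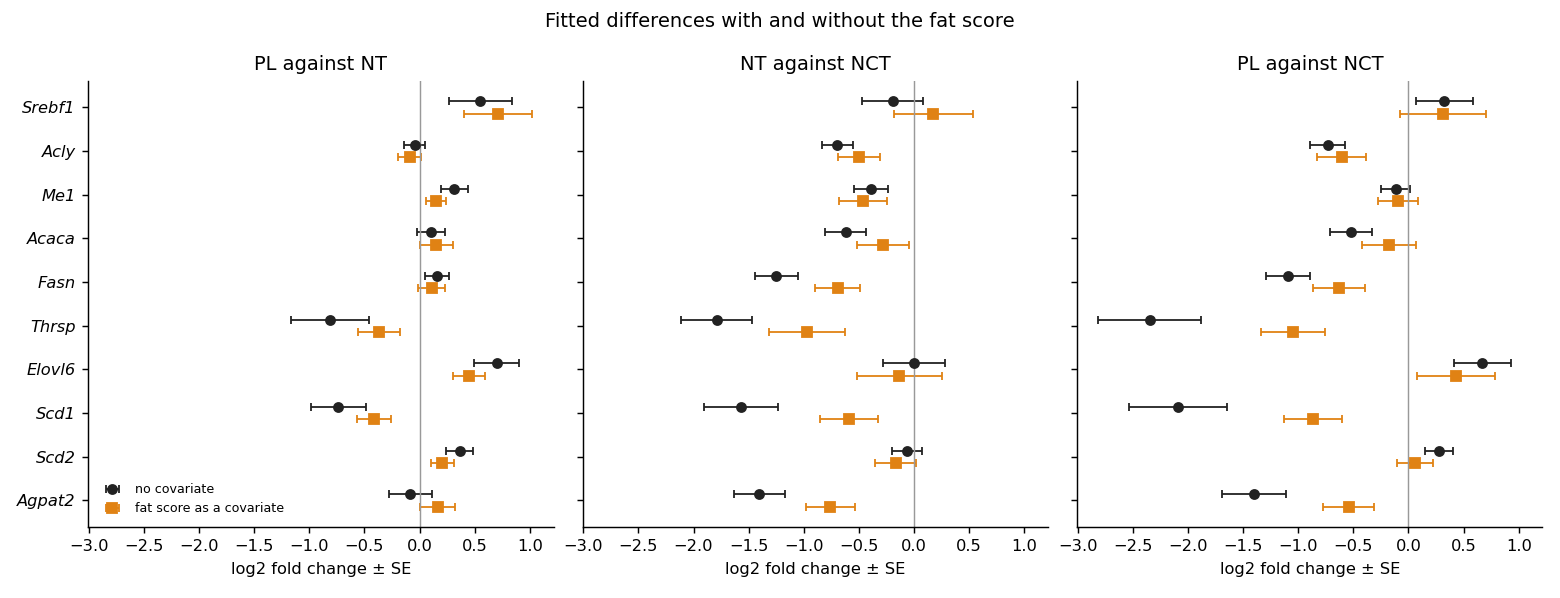
Fitted log2 fold change with its SE (horizontal axis) of each gene (rows) for PL against NT, NT against NCT and PL against NCT, without a covariate (black circles) and with the fat score as a covariate (orange squares). Against NCT the covariate moved Thrsp, Scd1, Agpat2 and Fasn towards 0, for example Scd1 in NT to -0.59 with it and -1.57 without it, while Elovl6 in PL against NT was at 0.45 with it and 0.70 without it.

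PL was also set against NCT, which shares its NCT libraries with the contrast of NT and its PL libraries with the paired one. Thrsp had a log2 fold change of -2.35 (SE 0.47), Scd1 of -2.09 (SE 0.44), Agpat2 of -1.40 (SE 0.29) and Fasn of -1.09 (SE 0.20). Acly (-0.73, SE 0.15) and Acaca (-0.52, SE 0.19) were lower by less. Elovl6 was at 0.67 (SE 0.26), Srebf1 at 0.33 (SE 0.26), Scd2 at 0.28 (SE 0.13) and Me1 at -0.12 (SE 0.13). For Thrsp and Scd1, PL lay further below NCT than NT did, and for Fasn, Agpat2, Acly and Acaca the values of PL and NT were close.

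The median over the 10 genes was -0.63, against 0.0038 over all 14234 genes tested. All PL libraries lay below all NCT libraries for Scd1 alone of the 10 genes, and for 0.457% of all genes. The choice of the set used these NCT libraries, so this share and the median are not read as a result. With the fat score as a covariate Thrsp was at -1.05, Scd1 at -0.87, Fasn at -0.63, Agpat2 at -0.54 and Elovl6 at 0.43. Without NCT 9, Scd1 in PL against NCT was at -1.60.

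An interaction of sex and tissue asked whether PL minus NT was alike in the 6 female and 3 male mice. No gene passed (edgeR adjusted p, 0% of 14461 genes), and 401 genes had an unadjusted p under 0.05. Thrsp had the largest difference of the 10, at -1.66 for males minus females on the log2 scale (SE 0.51, unadjusted p = 0.00739, adjusted p = 0.9998), followed by Scd1 at -1.15 (SE 0.38, unadjusted p = 0.00980, adjusted p = 0.9998). In the 3 males the lesion was lower than its normal tissue in 3 of 3 for Thrsp, Scd1, Agpat2 and Acaca. In the 6 females the lesion was higher in 3, 2, 4 and 4. For Acaca the gap in mouse 2 was small, with PL and NT both at 54.1 CPM. The males were also mice 2, 8 and 9, whose fat scores differed by -0.67, -0.74 and -3.54 between PL and NT. Among the females, mice 3 and 7 differed by -1.90 and -0.57, and the score was higher in the lesion of the rest. PL 2 and NT 9, from males, and NT 7, from a female, held over 2000 CPM of Pth. Sex, fat transcripts and parathyroid transcripts thus overlapped in part in these pairs. Their parts in the result were not tested.

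Each gene was then related to the fat score, over the 9 libraries of a group and over the 9 paired differences, which made 30 and 10 relations. Exact p-values ran over all pairings and were adjusted over 15212 genes for each group. None of the 40 passed, with adjusted p of 0.160 to 0.995. Past that threshold were 0% of all genes in PL, 0% in NT, 0.0131% in NCT and 0% for the paired differences. At an unadjusted exact p under 0.05 there were 4 of the 10 genes in PL, 1 in NT, 6 in NCT and 6 for the paired differences, against 7.43%, 6.82%, 8.13% and 7.94% of all genes.

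In lesions, Thrsp followed the fat score most closely (r = 0.91, exact p = 0.000463, adjusted p = 0.292, rho = 0.82), and r was 0.88 without PL 4 and PL 9, the 2 libraries farthest from the median score. Scd1 had r = 0.86 (exact p = 0.00343, adjusted p = 0.376, rho = 0.90) and 0.86 without them. Agpat2 had r = 0.81 (exact p = 0.00982, adjusted p = 0.474, rho = 0.85) and 0.73 without them. Scd2 ran against the score (r = -0.81, exact p = 0.00801, adjusted p = 0.461, rho = -0.83) and was at -0.65 without them. Fasn was at r = 0.38 in lesions (exact p = 0.331, adjusted p = 0.915, rho = 0.28) and 0.70 without them. Elovl6 was at -0.27 (exact p = 0.484, adjusted p = 0.951, rho = -0.17) and -0.50 without them. Srebf1 was at -0.40 (exact p = 0.284, adjusted p = 0.903, rho = -0.28) and -0.94 without them.

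In NT, Acly had r = -0.74 (exact p = 0.0259, adjusted p = 0.688, rho = -0.67) and -0.76 without NT 4 and NT 5, and the other 9 had r between -0.47 and 0.53. Me1 had r = -0.45 (exact p = 0.224, adjusted p = 0.897, rho = -0.47) and -0.88 without the same libraries. In NCT, Fasn had r = 0.87 (exact p = 0.000171, adjusted p = 0.160, rho = 0.83) and 0.86 without NCT 6 and NCT 9. Thrsp had r = 0.86 (exact p = 0.000733, adjusted p = 0.212, rho = 0.92) and 0.69 without them. Acly had r = 0.81 (exact p = 0.00136, adjusted p = 0.233, rho = 0.93) and 0.72 without them, opposite in sign to its r in NT. Agpat2 (r = 0.89, exact p = 0.00976, adjusted p = 0.401, rho = 0.73), Scd1 (r = 0.88, exact p = 0.0368, adjusted p = 0.572, rho = 0.70) and Srebf1 (r = 0.76, exact p = 0.00522, adjusted p = 0.335, rho = 0.78) were at 0.46, 0.40 and 0.44 without NCT 6 and NCT 9, so these relations rest largely on those libraries.

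**Figure D3:**
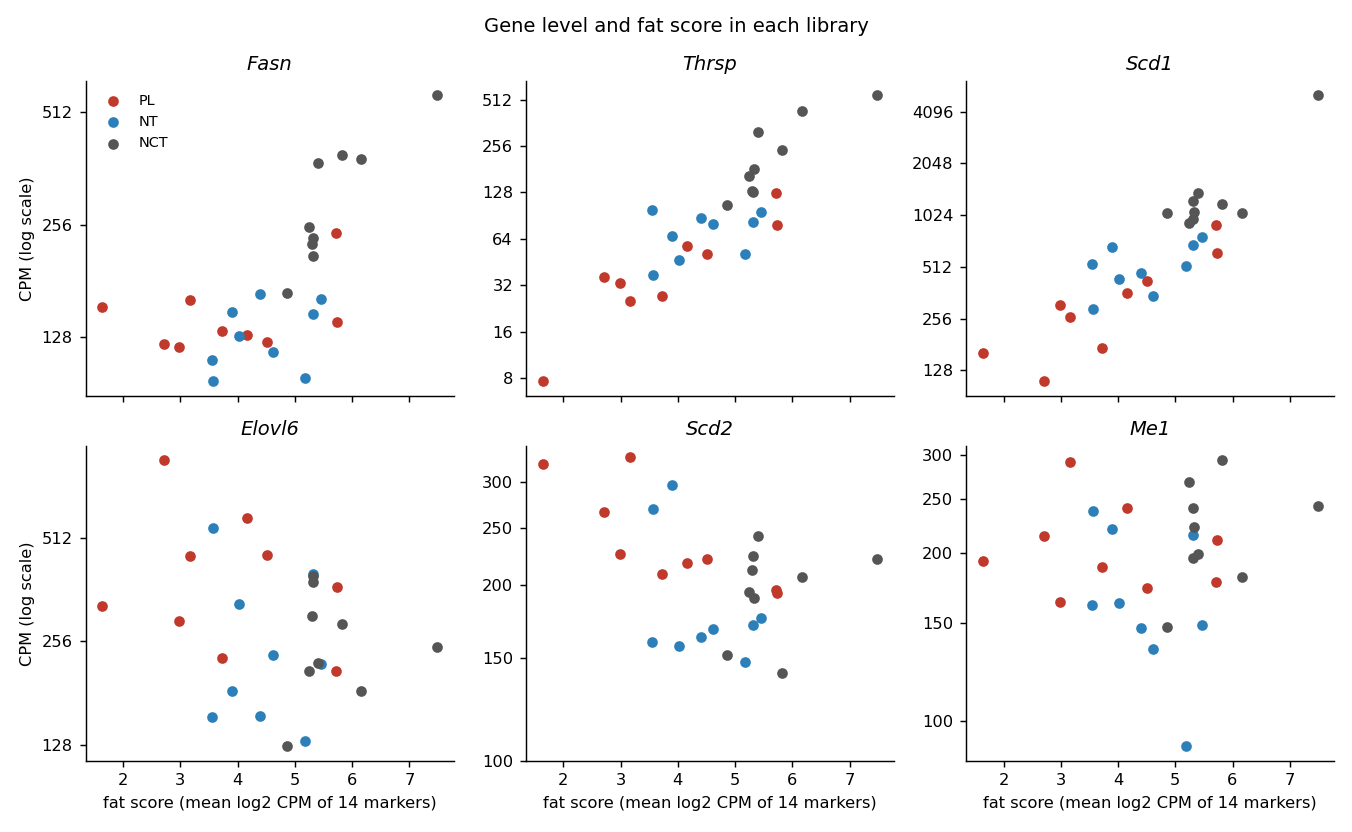
Level of 6 of the genes (vertical axis, CPM on a log scale) against the fat score (horizontal axis, mean log2 CPM of 14 adipocyte markers), 1 point per library, for PL, NT and NCT. Thrsp and Scd1 climb with the score within PL (r = 0.91 and 0.86) and NCT (0.86 and 0.88), Fasn climbs in NCT (0.87), and Scd2 runs down in PL (-0.81). Leaving out 1 NCT library, r in NCT went as low as 0.18 for Scd1 and 0.83 for Thrsp.

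The paired differences showed a split among the genes. The fat score was higher in the lesion than in the normal tissue in mice 1, 4, 5 and 6, all of them female, and lower in the other 5, with a difference of -3.54 in mouse 9. The PL minus NT difference went up with that of the score for Thrsp (r = 0.86, exact p = 0.00137, adjusted p = 0.312, rho = 0.80), Agpat2 (r = 0.86, exact p = 0.00143, adjusted p = 0.312, rho = 0.90) and Scd1 (r = 0.84, exact p = 0.000915, adjusted p = 0.249, rho = 0.93). Without mice 3 and 9, the farthest from the median, these were 0.96, 0.88 and 0.94. It went down for Me1 (r = -0.94, exact p = 0.000623, adjusted p = 0.211, rho = -0.82), Scd2 (r = -0.84, exact p = 0.00459, adjusted p = 0.339, rho = -0.65) and Elovl6 (r = -0.77, exact p = 0.00967, adjusted p = 0.428, rho = -0.83). Those became -0.64, -0.43 and -0.81 without the same mice, so that of Scd2 rests on them. Fasn was at -0.30 (exact p = 0.446, adjusted p = 0.905, rho = -0.17) and turned to 0.39 without them.

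**Figure D4:**
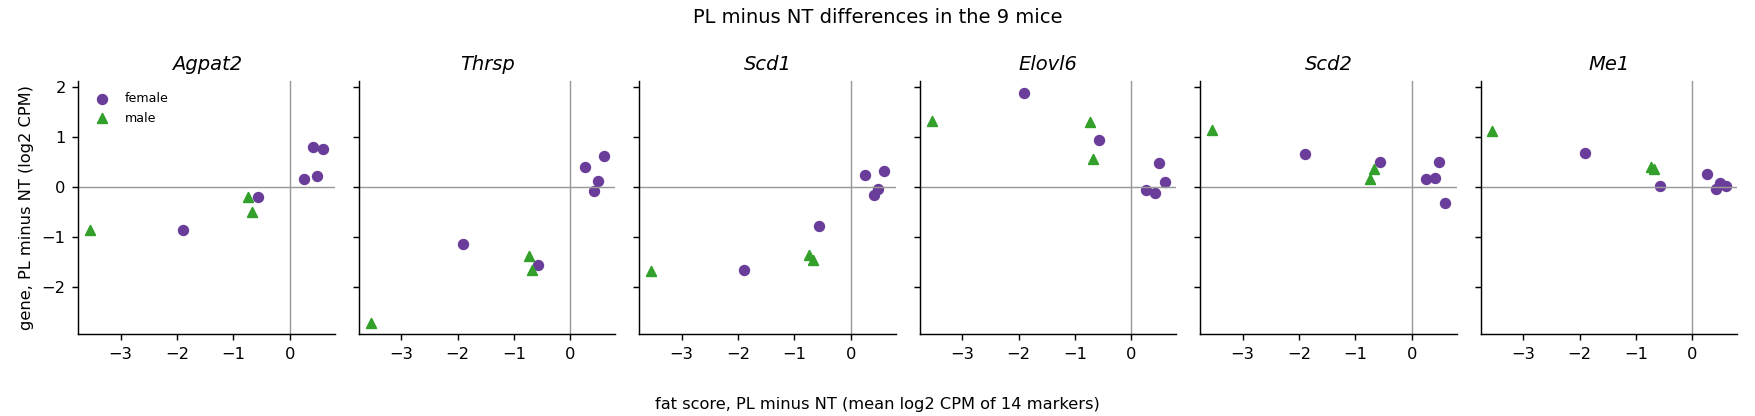
PL minus NT difference in log2 CPM of 6 genes (vertical axis) against the PL minus NT difference of the fat score (horizontal axis), 1 point per mouse, circles for the 6 females and triangles for the 3 males. Agpat2, Thrsp and Scd1 lie low where the lesion has less fat transcript (r = 0.86, 0.86 and 0.84), and Elovl6, Scd2 and Me1 lie high there (r = -0.77, -0.84 and -0.94).

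How the genes varied with each other was described by Pearson's r of log2 CPM centred on the group means, over the 27 libraries. The points share library composition and, for PL and NT, mice, and no test is attached. Agpat2 and Scd1 were closest (r = 0.88), followed by Agpat2 and Thrsp (0.73), Thrsp and Scd1 (0.71), Fasn and Agpat2 (0.67) and Fasn and Acaca (0.65). Me1 ran with Elovl6 (0.61) and Scd2 (0.47). The desaturases Scd1 and Scd2 were at -0.19, with -0.62 in PL, -0.11 in NT and 0.31 in NCT. Srebf1 and Fasn were at -0.05, with -0.64 in PL, -0.43 in NT and 0.76 in NCT, so these pooled values hide groups of opposite sign. Some positive pooled values were largest in NCT. Fasn and Acly, pooled at 0.60, were at 0.13 in PL, -0.05 in NT and 0.93 in NCT. Fasn and Acaca were at 0.40, 0.23 and 0.80. Agpat2 and Scd1 were high in each group, at 0.91, 0.71 and 0.92.

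**Figure D5:**
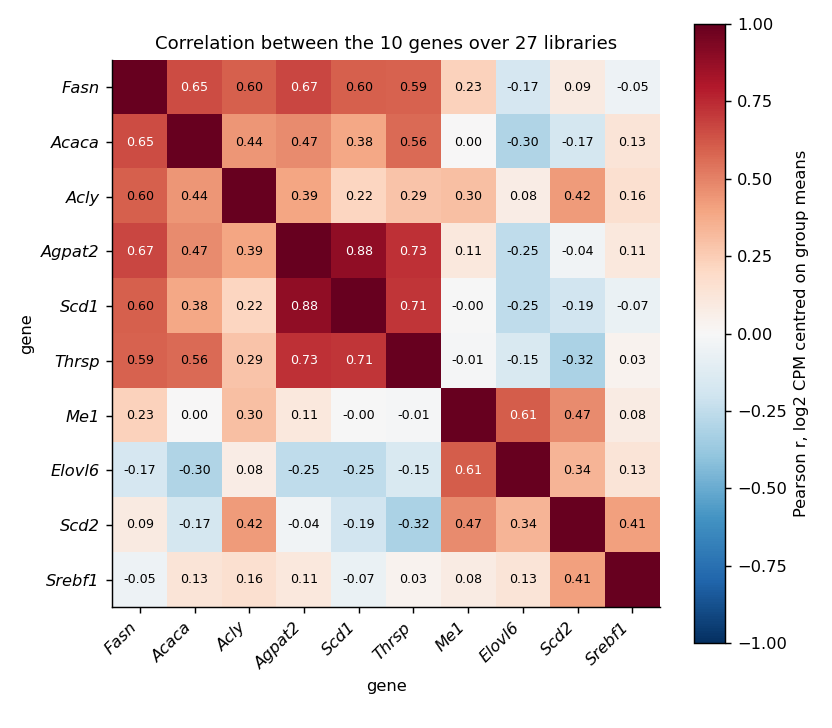
Pearson's r between each pair of the 10 genes (rows and columns), from log2 CPM centred on the group means over 27 libraries, coloured from -1 (blue) to 1 (red). Fasn, Acaca, Agpat2, Scd1 and Thrsp are red with each other, at 0.38 to 0.88, while Acly ranges from 0.22 with Scd1 to 0.60 with Fasn and is at 0.42 with Scd2.

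By the same measure, the genes most like Fasn among 8759 with a mean of at least 10 CPM were Atp5o, a subunit of the ATP synthase (r = 0.86), Cpt2, which brings fatty acids into mitochondria (0.83), Pnpla2, the triglyceride lipase of fat cells and a member of the fat score (0.78), the epoxide hydrolase Ephx2 (0.76), Hadha, an enzyme of fatty acid oxidation (0.76), and Dhdh, a dihydrodiol dehydrogenase (0.75). Dgat1, which makes triglycerides (0.75), Gpd1, the cytosolic glycerol-3-phosphate dehydrogenase (0.73), Cebpa, a transcription factor of fat and liver cells (0.71), and Gpd2, the mitochondrial glycerol-3-phosphate dehydrogenase (0.71), came next. Without NCT 9 these 10 had r from 0.59 to 0.81. Of the other members, Agpat2 ranked 24th, Acaca 30th, Acly 66th, Scd1 69th and Thrsp 72nd, and Me1, Scd2, Srebf1 and Elovl6 ranked 1319th or lower. These ranks use the pooled r, which can rest on 1 group, as for Acly (0.93 in NCT and -0.05 in NT).

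The wider pathway was read from 47 further genes of fatty acid and glycerolipid synthesis, of which 44 could be tested. Elovl3, Fads2 and Gpam were too low. In PL against NT no gene of the 44 passed (edgeR adjusted p). At an unadjusted p under 0.05 there were 8 (18.2%, against 17.6% of all genes), and DESeq2 called 3 (6.82%, against 8.89% of all genes), so neither share was far from that of all genes. The 3 were Idh1, the cytosolic isocitrate dehydrogenase that yields NADPH, Dgat2, a triglyceride synthase, and Acsl3, an acyl-CoA synthetase. Idh1 averaged 125 ± 59.5 CPM in PL and 69.8 ± 21.3 CPM in NT (0.75, SE 0.19, adjusted p = 0.0552). Dgat2 averaged 82.4 ± 55.1 CPM in PL and 37.3 ± 15.3 CPM in NT (0.94, SE 0.26, adjusted p = 0.0715), and Acsl3 averaged 207 ± 46.0 CPM in PL and 152 ± 59.7 CPM in NT (0.51, SE 0.16, adjusted p = 0.108). The next by p were Acsl1, another acyl-CoA synthetase (0.35, adjusted p = 0.127), Pcx, pyruvate carboxylase (0.60, adjusted p = 0.143), and Agpat4, an acyltransferase related to Agpat2 (0.42, adjusted p = 0.177). Idh1 passed without mouse 1 (adjusted p = 0.0382) or mouse 5 (0.0222), Dgat2 without mouse 3 (0.0375) or mouse 9 (0.0419), and Acsl3 with no filter on low counts (0.0439).

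In NT against NCT none of the 44 passed in edgeR. At an unadjusted p under 0.05 there were 11, or 25%, against 11.6% of all genes, and DESeq2 called 7, or 15.9%, against 0.928% of all genes. Acacb, the mitochondrial acetyl-CoA carboxylase, averaged 3.44 ± 1.78 CPM in NT and 11.2 ± 7.56 CPM in NCT (-1.66, SE 0.36, adjusted p = 0.0905). Lpin1, a phosphatidic acid phosphatase, was at -1.28 (SE 0.30, adjusted p = 0.114), Acss2, an acetyl-CoA synthetase, at -1.28 (SE 0.32, adjusted p = 0.120), Gpd1 at -1.59 (SE 0.38, adjusted p = 0.125) and Mlxipl, the carbohydrate-responsive transcription factor ChREBP, at -1.76 (SE 0.47, adjusted p = 0.161). Elovl1, an elongase of very long chains, was at 0.55 (SE 0.14, adjusted p = 0.114). DESeq2 called each of these 6, and Acacb passed in edgeR with no filter on low counts (adjusted p = 0.0298). With the fat score as a covariate Acacb was at -0.71, Acss2 at -0.69, Gpd1 at -0.57, Lpin1 at -0.45 and Mlxipl at -0.44, each smaller than without it, and Elovl1 was at 0.50.

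In PL against NCT 9 of the 44 passed, 20.5% against 10.1% of all genes. Lpin1 fell to 22.6 ± 5.70 CPM in PL, against 58.4 ± 39.1 CPM in NCT (-1.37, SE 0.27, adjusted p = 0.00272), and the related Lpin2 fell to 49.1 ± 6.71 CPM in PL, against 68.1 ± 11.1 CPM in NCT (-0.49, SE 0.12, adjusted p = 0.0106). Gpd1 (-1.36, SE 0.37), Insig1, a brake on SREBP processing (-0.80, SE 0.24), Acacb (-1.59, SE 0.50) and Acss2 (-1.64, SE 0.51) fell as well. Pgd, an NADPH source of the pentose phosphate pathway (0.47, SE 0.13, adjusted p = 0.0218), Idh1 (0.86, SE 0.25, adjusted p = 0.0314) and Elovl1 (0.45, SE 0.14, adjusted p = 0.0410) rose. The 44 genes were evenly split, with 22 above 0 and 22 below.

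With the fat score as a covariate none of the 9 passed, and their adjusted p ran from 0.0714 for Pgd to 0.975 for Insig1. Gpd1 was then at -0.28, Insig1 at -0.047, Acacb at -0.45, Acss2 at -0.29 and Lpin1 at -0.52, all smaller than without it. Pgd at 0.63, Lpin2 at -0.57, Elovl1 at 0.50 and Idh1 at 0.72 were larger or close to their size without it. Without the libraries that had Pth or Lipf over 2000 CPM, 8 of the 9 no longer passed, all but Lpin1. Within the mice of the shared number series none of the 9 passed. Over 18 fits that each left out 1 library, Lpin1, Lpin2 and Pgd passed in 18, Gpd1 in 17 (all but the fit without NCT 6, adjusted p = 0.0518), Idh1 and Insig1 in 11, Elovl1 in 7, Acacb in 4 and Acss2 in 2. In females alone Lpin1 and Lpin2 passed.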

How the data were processed

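The 10 genes, the fat markers and the wider pathway list were chosen with earlier results of these data known. Counts per gene are those the authors deposited, whole numbers with no normalization. STAR, featureCounts, DESeq2 and GRCm38 are named without roles or versions, per the submitters' processing notes. The sources used here do not give the annotation release, the strand setting or how molecular identifiers were treated. Of 54532 rows, 54409 matched names in GENCODE M21 by identifier, and the 123 others held 0.0251% of counts.

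Each comparison was fitted on its 2 groups in edgeR 4.0.16 under R 4.3.3 by its quasi-likelihood F test (TMM factors, filterByExpr with minimum count 10, robust dispersion, Benjamini-Hochberg adjustment over all genes tested at 0.05). PL against NT kept the mouse as a block, since both libraries carry 1 mouse number. Deviations of partners from their group means correlated at -0.016 to 0.21, with 5 of 9 pairs over 0.1. The SE was derived from the log2 fold change and F (size over root F). TMM-scaled CPM used all 27 libraries. Log2 CPM for the fat score and correlations had a prior count of 2. Correlation p-values came from exact permutation and were adjusted over 15212 genes. The plan was to adjust over the 10 genes and all groups together, and over the 10 genes for the paired differences. That planned adjustment was not run, so how many relations would pass under it is not given. The fits and the permutation were tested on simulated data. Alternatives were DESeq2 1.42.0, its size factors, other filters, females only, sex or the fat score as a covariate, no block, all libraries in 1 fit, mice of 1 number series, other fat scores, prior count 0.5, leaving out libraries with Pth or Lipf, and leaving out each library. The named genes were the 10, called genes and up to 6 by smallest p of the wider list, and the 10 most like Fasn. Near-identical and overlapping genes could share reads. Counting error limits genes with few counts, such as Srebf1 with a lowest count of 43.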

Additional observations from a re-analysis of the deposited data

Results flagged for a closer look

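Each of the 10 genes was screened in each group for a highest or lowest library whose gap to the next, divided by the range of the group, was above Dixon's critical value for 9 values. That made 30 groups of 9 libraries, and 3 passed. For independent groups of normally distributed values, chance alone flags about 1 in 20 groups. The CPM values need not be normal and the genes vary together, so that rate may not hold here. Fasn was highest in PL 5, at 244 CPM with the next lesion at 161 CPM (gap 0.674 of the range). Agpat2 was highest in NCT 9, at 140 CPM with the next at 69.7 CPM (gap 0.682 of the range). Scd1 was highest in NCT 9 too, at 5102 CPM with the next at 1377 CPM (gap 0.891 of the range). NCT 9 also had the highest adipocyte markers, at 6211 CPM in sum, and Lipf at 9970 CPM. Its brown fat genes summed to 1868 CPM, the highest of all libraries. In PL 5 the adipocyte markers summed to 1517 CPM, above the PL median of 569 CPM. The part of these transcripts in the high values was not tested.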

How the results depend on the processing

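For PL against NT, 445 genes passed over all genes, and none of the 10. There were 1285 in DESeq2 (with Elovl6, Scd1 and Thrsp), 832 with no filter, 6 in females alone, 146 with the fat score as a covariate, 95 without the mice that had Pth or Lipf libraries, and 137 to 529 leaving out 1 mouse (257 without mouse 2, 209 without 3, 240 without 4, 234 without 7 and 137 without 8). The fit with no replicate block gave 402, and it changed no call among the 10. For NT against NCT, 4 passed, and there were 134 in DESeq2, 15 with no filter, 1 in females, 0 with the fat score (1126 at an unadjusted p under 0.05), 1 without Pth or Lipf libraries, 0 within 1 number series (552 at an unadjusted p under 0.05) and 0 to 12 leaving out 1 library (1 without NT 2, 0 without NT 4 or NT 6, 12 without NCT 7 and 9 without NCT 8). For PL against NCT, 1433 passed, and there were 450 in females, 164 with the fat score, 797 without Pth or Lipf libraries, 77 within 1 number series and 1126 to 1655 leaving out 1 library. Me1 turned to 0.07 in NT and 0.25 in PL against NCT within that series.

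Agpat2 in PL against NT, at -0.08, turned to 0.15 in females, 0.16 with the fat score, 0.14 without those mice and 0.0072 without the block, and lay between -0.19 and 0.018 leaving out 1 mouse. Leaving out 1 mouse, the sex difference ran from -0.29 to 0.19 for Fasn, -0.062 to 0.17 for Acly, -0.47 to 0.65 for Srebf1 and -0.029 to 0.48 for Scd2, each through 0. With the brown fat list as the score, r turned to 0.12 for Fasn and -0.065 for Srebf1 in the paired differences, to 0.056 for Scd2, 0.10 for Elovl6, -0.066 for Srebf1 and 0.34 for Me1 in NT and to -0.36 for Elovl6 in NCT. With Adipoq, Plin1 and Cidec alone, Acaca in NT was at -0.14. Leaving out 1 library or mouse, r ran from -0.50 to 0.29 for Fasn and -0.12 to 0.59 for Srebf1 in the paired differences, -0.22 to 0.56 for Fasn, -0.50 to 0.047 for Acly and -0.26 to 0.030 for Me1 in PL, -0.31 to 0.45 for Acaca, -0.39 to 0.23 for Elovl6 and -0.074 to 0.21 for Srebf1 in NT, and -0.32 to 0.15 for Elovl6 in NCT. For all of these changes the cause was not tested. No sex difference passed in any fit run.

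Levels come from 9 animals a group, and the labels give no batch. The sources used here do not give the captured area or its cell makeup, so a lower level of a gene that fat cells also express cannot be assigned to a cell type. Srebf1 and Agpat2 had the fewest counts of the 10 genes, which limits small differences in them most.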
